A study of Arabidopsis thaliana with 12 samples.

Results

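The genes described here are 8 members of the DNA replication machinery of Arabidopsis thaliana, chosen by locus ID from the 33602 gene IDs measured: MCM2 (AT1G44900), MCM3 (AT5G46280), MCM4 (AT2G16440), MCM5 (AT2G07690), MCM6 (AT5G44635), MCM7 (AT4G02060, also called PROLIFERA), PCNA1 (AT1G07370) and PCNA2 (AT2G29570). Messenger RNA of developing seeds, taken from siliques 9 days after pollination, was sequenced in 12 libraries. Growth was at 22 °C in days of 16 h light, with nights of 8 h. The groups, with 3 libraries each, were dellaq, a genotype the labels give by that name without saying which DELLA genes it affects; lec1-4, a mutant named for LEC1; and the wild-type sets Col-0-2 and Col-0-1. The labels do not say which wild-type set was grown or sequenced with which mutant, so each mutant is set against both. Nor do they say that replicates came from separate plants; the p-values therefore reflect only how far these samples spread, and that spread may be technical.

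MCM2 to MCM7 are the subunits of a ring-shaped helicase. The origin recognition complex, with CDC6 and CDT1, loads this ring onto DNA before S phase, a step called licensing, and CDC45 and the GINS complex later switch it on to unwind the DNA. PCNA is a sliding clamp, loaded by replication factor C, that keeps DNA polymerases on their template. In plants, many of these genes are transcribed in late G1 and S phase under E2F factors, which the retinoblastoma-related protein RBR1 holds in check. DELLA proteins restrain gibberellin signalling in the nucleus, and LEC1 is a subunit of the NF-Y transcription factor that drives embryo maturation.

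All 8 genes are protein-coding genes of the nuclear chromosomes in the RefSeq annotation of TAIR10.1. Promoter sequence was read from that assembly, since the build used by the authors is not given in the sources used here. The 250 bases before each annotated gene start were searched on both strands for 4 spellings of the E2F site, TTTCCCGC, TTTGGCGC, TTTCGCGC and TTTGCCGC. A match was present for 5 of the 8 genes (MCM2, MCM3, MCM4, MCM5 and MCM6), for 15 of 53 other replication genes (28.3%), and for 387 of 27443 nuclear protein-coding genes (1.41%). The 5 matches are not all in the same spelling. The windows of 100 bases that hold them are printed below in the direction of transcription, with the match in capitals. They lie at chr1:16970114-16970213 (plus strand) for MCM2, chr5:18773824-18773923 (minus strand) for MCM3, chr2:7130730-7130829 (minus strand) for MCM4, chr2:3527501-3527600 (minus strand) for MCM5 and chr5:18010668-18010767 (minus strand) for MCM6, all TAIR10.1 and all upstream of the gene start.
MCM2: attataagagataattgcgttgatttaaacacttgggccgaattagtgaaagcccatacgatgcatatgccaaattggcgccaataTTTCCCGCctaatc
MCM3: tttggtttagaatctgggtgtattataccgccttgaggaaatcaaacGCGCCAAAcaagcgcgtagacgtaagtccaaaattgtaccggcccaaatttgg
MCM4: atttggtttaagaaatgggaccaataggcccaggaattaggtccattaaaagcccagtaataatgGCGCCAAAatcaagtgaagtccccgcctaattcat
MCM5: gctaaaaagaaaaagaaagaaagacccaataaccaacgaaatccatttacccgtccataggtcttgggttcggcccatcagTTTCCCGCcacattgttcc
MCM6: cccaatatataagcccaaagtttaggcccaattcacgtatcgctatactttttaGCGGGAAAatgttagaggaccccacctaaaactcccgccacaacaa
In MCM2 and MCM5 the match reads TTTCCCGC on the printed strand, 14 to 7 and 19 to 12 bases before the gene start. In MCM6 the same letters lie on the other strand, 46 to 39 bases before the start. MCM3 and MCM4 carry TTTGGCGC on the other strand, printed as GCGCCAAA, at 170 to 163 and 35 to 28 bases before the start. MCM7, PCNA1 and PCNA2 hold none of the 4 spellings in this window. A match is a description of letters, and binding was not measured.

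Levels are FPKM, fragments scaled by gene length and library size, as the authors deposited them. The steps between low values put library depth at 13.7 to 19.4 M fragments, an inference from TAIR10.1 exon lengths, and at that depth each value of the 8 genes rests on about 327 to 1500 fragments, a counting error of 2.58 to 5.53%. LEC1 itself measured 2.63, 2.38 and 3.42 FPKM in lec1-4, below every wild-type library (67.5 to 124 FPKM). RGL1, one of the DELLA genes, measured 1.05 to 1.61 FPKM in dellaq, below the 8.43 to 14.5 FPKM of the wild-type libraries; it was chosen after its values were seen. Some features divided the libraries in the same way: summed plastid-encoded transcripts reached 7116 to 8593 FPKM in dellaq and 127 to 186 FPKM in lec1-4, compared with 4523 to 5039 FPKM in Col-0-2 and 172 to 251 FPKM in Col-0-1. The rank correlation of a gene's deviation from its mean with its exon length was negative in dellaq (-0.17 to -0.15), positive in lec1-4 (0.24 to 0.25), negative in Col-0-2 (-0.26 to -0.19) and positive in Col-0-1 (0.27 to 0.30). On both features dellaq thus lay nearer to Col-0-2, and lec1-4 nearer to Col-0-1.

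The helicase genes were lower in dellaq seeds than in either wild-type set, and not in lec1-4 seeds. Summed over MCM2 to MCM7, the level was 81.3 to 92.9 FPKM in the dellaq libraries and 169 to 178 FPKM in the lec1-4 libraries, against 140 to 146 FPKM in Col-0-2 and 145 to 168 FPKM in Col-0-1. PCNA1 and PCNA2 were lowest in dellaq as well, but among the other groups they followed another order, with the highest levels in Col-0-2. In bulk seed RNA, fewer cells of a type and less RNA per cell cannot be told apart.

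MCM2 is a subunit whose tail binds histones as well as forming part of the ring. It measured 14.9, 13.2 and 12.9 FPKM in dellaq and 27.0, 28.3 and 26.8 FPKM in lec1-4, against 24.2, 23.8 and 23.9 FPKM in Col-0-2 and 24.0, 27.1 and 24.0 FPKM in Col-0-1. Every dellaq library lay far below all 9 others, while the lec1-4 libraries overlapped the upper end of Col-0-1. MCM5 stands beside MCM2 at the gate through which the ring opens around DNA. MCM5 measured 16.6, 16.5 and 15.6 FPKM in dellaq and 33.2, 36.0 and 34.4 FPKM in lec1-4, against 26.6, 27.5 and 29.6 FPKM in Col-0-2 and 30.5, 30.9 and 26.3 FPKM in Col-0-1. For this gene the lec1-4 libraries stood above all 6 wild-type libraries and the dellaq libraries below them.

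MCM3, the partner of MCM5 in the ring, had the widest spread of the helicase genes within a wild-type set. It measured 13.8, 11.3 and 12 FPKM in dellaq and 29.2, 30.4 and 28.3 FPKM in lec1-4, against 19.6, 20.3 and 21.2 FPKM in Col-0-2 and 28.4, 29.7 and 22.4 FPKM in Col-0-1. Its wild-type sets did not overlap, and lec1-4 overlapped Col-0-1. MCM7, known in Arabidopsis as PROLIFERA from its role in dividing cells of the embryo and megagametophyte, was the most abundant subunit in each group. It measured 20.6, 17.0 and 18.8 FPKM in dellaq and 34.4, 35.5 and 35.3 FPKM in lec1-4, against 29.2, 30.4 and 28.9 FPKM in Col-0-2 and 31.5, 34.4 and 30.8 FPKM in Col-0-1. Its lowest lec1-4 library all but equalled its highest Col-0-1 library. MCM7 shares 21 exon bases (0.79%) with neighbouring genes.

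MCM4 and MCM6 pair with MCM7 in the part of the ring that unwinds DNA. MCM4 measured 15.6, 13.6 and 13.8 FPKM in dellaq and 24.5, 28.0 and 25.7 FPKM in lec1-4, against 23.7, 25.4 and 25.4 FPKM in Col-0-2 and 25.05, 26.5 and 24.2 FPKM in Col-0-1. Here the lec1-4 and wild-type libraries overlapped throughout, and the dellaq libraries stood apart below. MCM6 was the least abundant subunit in each group, at 11.4, 9.69 and 10.5 FPKM in dellaq and 20.6, 20.2 and 18.8 FPKM in lec1-4, against 16.6, 16.8 and 16.6 FPKM in Col-0-2 and 18.2, 19.9 and 17.3 FPKM in Col-0-1. All of its lec1-4 libraries exceeded Col-0-2 and overlapped Col-0-1.

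**Figure D1:**
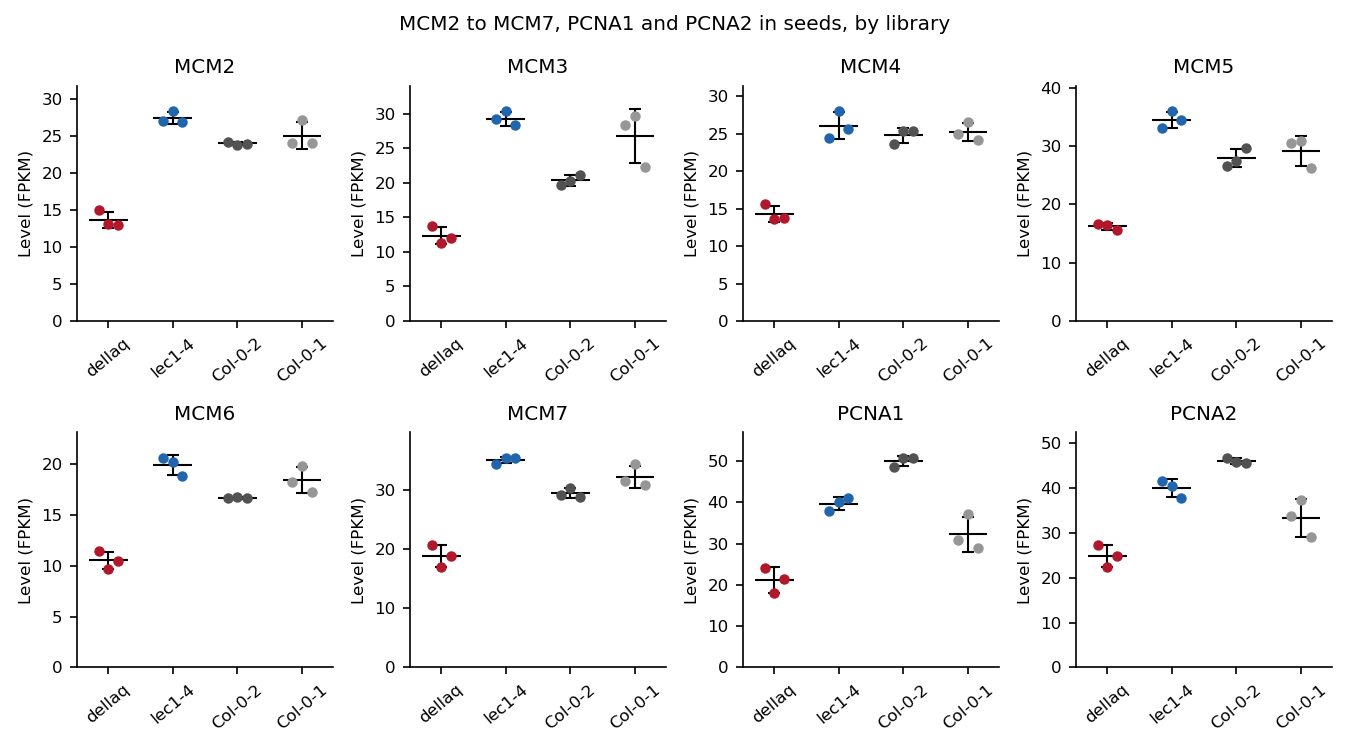
Level of each gene (FPKM, linear axes from 0) in the 3 libraries of dellaq, lec1-4, Col-0-2 and Col-0-1; points are libraries, horizontal lines means and bars SD (n = 3). In all 8 panels the 3 dellaq libraries lie below the other 9, and for PCNA1 and PCNA2 Col-0-2 is the highest group.

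PCNA1 and PCNA2 encode near-identical clamps. PCNA1 measured 24.1, 17.96 and 21.5 FPKM in dellaq and 37.9, 40.2 and 41.0 FPKM in lec1-4, against 48.7, 50.8 and 50.7 FPKM in Col-0-2 and 30.9, 37.1 and 28.9 FPKM in Col-0-1. The 4 groups were separate for PCNA1, in the order Col-0-2, lec1-4, Col-0-1 and dellaq. PCNA2 measured 27.4, 22.4 and 24.8 FPKM in dellaq and 41.6, 40.6 and 37.7 FPKM in lec1-4, against 46.8, 45.8 and 45.7 FPKM in Col-0-2 and 33.7, 37.3 and 29.0 FPKM in Col-0-1. PCNA2 had the same order of groups, and its dellaq libraries came closest to a wild-type library, with 27.4 FPKM for the highest dellaq value against 29.0 FPKM for the lowest Col-0-1 value. The coding sequences of the pair are 85.6% identical over 792 and 795 bases, with a longest shared exonic run of 41 bases, and how the counting treated reads that match both is unknown, so the split between the pair is uncertain. PCNA2 also shares 279 exon bases (23.6%) with ENOC (AT2G29560) on the opposite strand, and the libraries do not mark strand. ENOC averaged 21.2 ± 1.09 FPKM in dellaq and 19.4 ± 0.922 FPKM in lec1-4, against 25.4 ± 0.755 FPKM in Col-0-2 and 18.5 ± 0.599 FPKM in Col-0-1 (SD, n = 3 each), and its part in the PCNA2 values was not tested.

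Changes were tested on log2(FPKM + 1) in a single limma model over 20222 genes that reached 1 FPKM in 3 or more libraries, and adjusted p-values cover all of those genes. All 8 genes passed the filter. All 8 fell in dellaq against Col-0-1, a call made for 50.9% of the genes tested, and against Col-0-2, a call made for 41.6%. Against both sets at once the count was 8 of 8, beside 28.4% of all genes tested. The dellaq libraries lay below the other 9 for 8 of 8, beside 28.5%. The 8 genes had a median log2 change of -0.77 where Col-0-1 was the comparator and of -0.75 where it was Col-0-2, while that over all genes tested was -0.22 and -0.12.

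MCM3 had the largest fall against Col-0-1, a log2 change of -1.05 ± 0.10 (SE, adjusted p = 1.16e-06), to 0.48 of the wild-type value on the log2(FPKM + 1) scale. Against Col-0-2 its change was -0.68 ± 0.10 (SE, adjusted p = 5.02e-05). The other helicase subunits fell by similar amounts in either comparison, by 0.75 to 0.83 on the log2 scale against Col-0-1 and by 0.62 to 0.77 against Col-0-2. MCM2 had -0.83 ± 0.06 and -0.77 ± 0.06 against Col-0-1 and Col-0-2 (SE, adjusted p = 2.74e-07 and 4.93e-07). The clamp genes differed more with the wild-type set chosen. PCNA1 changed by -0.59 ± 0.10 against Col-0-1 and by -1.21 ± 0.10 against Col-0-2 (SE, adjusted p = 2.07e-04 and 5.23e-07). PCNA2 changed by -0.41 ± 0.09 against Col-0-1 (SE, adjusted p = 0.00107), a call lost with median-ratio scaling (-0.16, adjusted p = 0.105; 30.1% of the genes tested were then called lower), and by -0.87 ± 0.09 against Col-0-2 (SE, adjusted p = 2.54e-06).

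The whole distribution of genes was shifted, so each change was also read against the median gene. Relative to that median the 8 genes lay between -0.83 and -0.18 against Col-0-1 and between -1.09 and -0.50 against Col-0-2. With the trends on exon length and GC content removed, which sets the median gene at 0, they lay between -0.67 and -0.34 against Col-0-1 and between -1.13 and -0.48 against Col-0-2, and all 8 still passed in both, beside 29.9% and 31.1% of the genes tested. PCNA1 and PCNA2 have 1130 and 1183 exon bases, and the helicase genes 2649 to 3184.

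**Figure D2:**
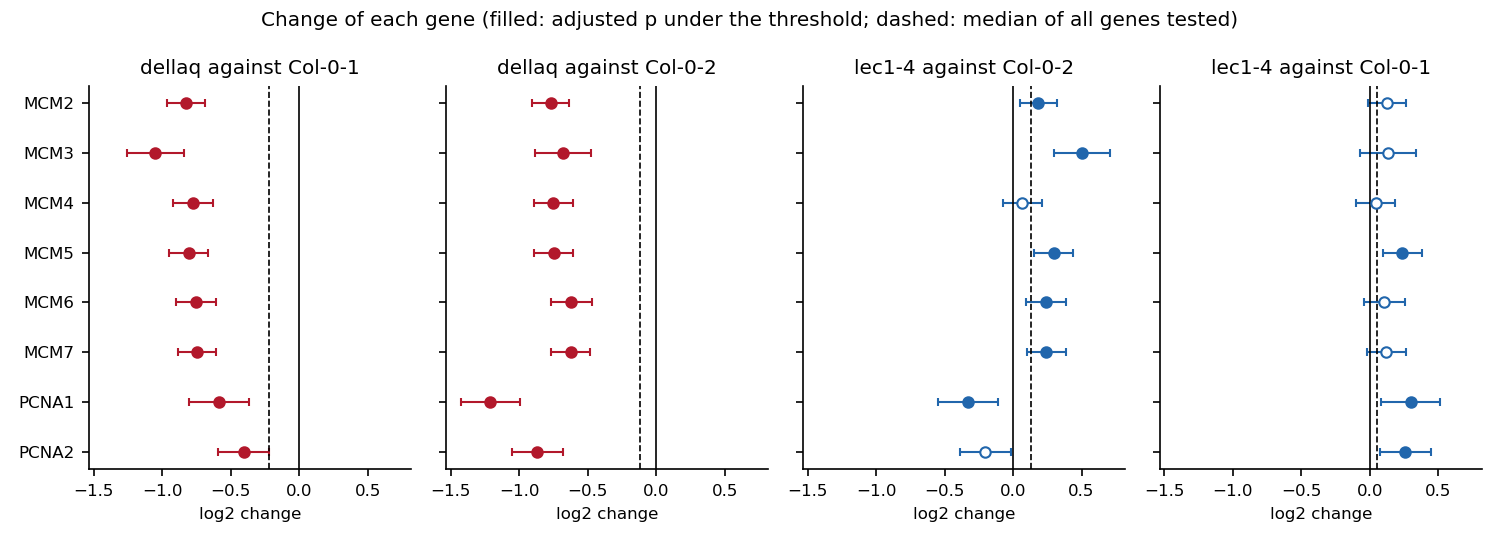
Log2 change of each gene in dellaq and lec1-4 against each wild-type set (x axis, log2(FPKM + 1) scale; bars, 95% intervals from limma). Filled points passed an adjusted p of 0.05, the solid line is 0 and the dashed line is the median of all genes tested. All 16 dellaq points are filled and left of the dashed line, whereas in lec1-4 the helicase and clamp genes lie on opposite sides of 0 against Col-0-2 only.

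Markers of the seed's parts did not all move the same way in dellaq. Over all genes tested, 28.4% were lower and 9.78% higher in dellaq against both sets. Of 8 seed coat markers, 7 were lower in dellaq than in both wild-type sets, and their summed level was 962 to 1152 FPKM in dellaq, against 1517 to 1635 FPKM in Col-0-2 and 1524 to 1683 FPKM in Col-0-1, with no marker at 0. In lec1-4 the same sum was 1608 to 1753 FPKM. Of 8 embryo markers, 1 was lower and 1 higher in dellaq against both sets, with summed levels of 774 to 880 FPKM in dellaq, against 497 to 547 FPKM in Col-0-2 and 778 to 784 FPKM in Col-0-1. In lec1-4 the embryo sum was 781 to 860 FPKM, and LEC1 itself is among these markers. In lec1-4, 2 of the 8 embryo markers were lower and 2 higher against both sets, beside 4.01% and 8.19% of the genes tested. Of the 8 endosperm markers 6 were tested, 4 of them lower and 1 higher in dellaq against both sets. Their sum, in which EPR1 was the gene called higher, was 2759 to 3021 FPKM in dellaq, against 502 to 589 FPKM in Col-0-2 and 1294 to 1716 FPKM in Col-0-1, and MINI3 and IKU2, regulators of early endosperm growth, stayed under 0.1 FPKM in every library. In lec1-4 the endosperm sum was 628 to 786 FPKM. The dellaq sum exceeded both wild-type sets although 4 of the 6 tested markers were lower, so it does not describe the endosperm markers as a set. The part of the seed's makeup in the helicase and clamp levels was not tested.

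In lec1-4 seeds 5 of the 6 helicase genes rose by small amounts against Col-0-2, and fewer changes were called against Col-0-1. Against Col-0-2, 5 of the 8 genes were higher (MCM2, MCM3, MCM5, MCM6 and MCM7), a call made for 42.7% of the genes tested, and PCNA1 was lower, a call made for 23.3%. The largest rise was that of MCM3, a log2 change of 0.50 ± 0.10 (SE, adjusted p = 5.17e-04), and MCM5 rose by 0.30 ± 0.07 (SE, adjusted p = 0.00159). MCM2, MCM6 and MCM7 rose by 0.18 to 0.24, beside a median gene at 0.13. With median-ratio scaling, which moves the median gene to -0.01, only MCM3 of these passed (0.35, beside 29.7% of the genes tested) and MCM4 changed sign (-0.086). With the length and GC trends removed, MCM3 was again the only gene called higher (0.23, beside 30.5%). MCM4 was then called lower (-0.16, adjusted p = 0.0417), and MCM2, MCM6 and MCM7 changed sign without a call. PCNA1 changed by -0.33 ± 0.10 (SE, adjusted p = 0.0116), a call lost with equal FPKM sums (-0.19) or with the length and GC trends removed (-0.23). PCNA2 changed by -0.20 with an interval of -0.39 to -0.02 (adjusted p = 0.0534), and MCM4 by 0.07 with an interval of -0.08 to 0.21 (adjusted p = 0.382).

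Against Col-0-1, lec1-4 had 3 of the 8 genes higher, MCM5, PCNA1 and PCNA2, beside 15.8% of the genes tested. None was called lower by limma (10.7% of the genes tested were), at an unadjusted level as well, since all 8 estimates were positive. MCM5 rose by 0.24 ± 0.07 (SE, adjusted p = 0.0188), PCNA1 by 0.30 ± 0.10 (adjusted p = 0.0441) and PCNA2 by 0.26 ± 0.09 (adjusted p = 0.0419). The count of 3 was 0 without lec1-4 replicate 2 or Col-0-1 replicate 3, and 1 without dellaq replicate 3, lec1-4 replicate 1, Col-0-1 replicate 1 or any Col-0-2 library. The MCM5 call was lost without lec1-4 replicate 2 (0.21) or without Col-0-1 replicate 3 (0.16). The remaining 5 helicase genes had changes of 0.04 to 0.13, with intervals that all include 0. Of the 8 genes, MCM5 was the one called higher in lec1-4 against both sets, beside 8.19% of the genes tested. It lost this call with median-ratio scaling, where the share of all genes was 5.10%. The call was also lost with the length and GC trends removed and with a minimum log2 change of 0.5. Only MCM5 and MCM7 had all lec1-4 libraries above all 6 wild-type libraries, beside 14.9% of the genes tested. For MCM7 the nearest values, 34.3907 FPKM in lec1-4 and 34.3906 FPKM in the wild type, were all but equal. None of the 8 had all lec1-4 libraries below, beside 5.46%.

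Set directly against each other, the mutants differed for each gene. All 8 were lower in dellaq than in lec1-4, beside 54.6% of the genes tested, with log2 changes of -1.18 for MCM3, -1.04 for MCM5 and -0.96 to -0.82 for the other helicase genes. PCNA1 changed by -0.88 and PCNA2 by -0.67 in the same comparison, in which the median gene changed by -0.27. With the length and GC trends removed all 8 still passed, at -0.77 for MCM3, -0.71 for MCM5 and between -0.54 and -0.45 for the other helicase genes. The difference between the change in dellaq (against Col-0-1) and the change in lec1-4 (against Col-0-2) passed for MCM2 to MCM7, at -1.56 for MCM3 and between -1.11 and -0.85 for the other 5, beside 52.8% of the genes tested. Its size depended on the scaling: with the length and GC trends removed it was -0.91 for MCM3 and between -0.54 and -0.31 for the other 5, and with median-ratio scaling -1.16 and between -0.71 and -0.45, with all 6 still passing. It did not pass for PCNA1 (-0.26, interval -0.57 to 0.05, adjusted p = 0.113) or PCNA2 (-0.20, interval -0.47 to 0.06, adjusted p = 0.145). With the wild-type sets exchanged, so that dellaq was set against Col-0-2, all 8 passed, beside 41.4% of the genes tested, and the clamp genes had the largest differences of the 8: PCNA1 by -1.51 ± 0.14 and PCNA2 by -1.13 ± 0.12 (SE, adjusted p = 2.02e-06 and 6.68e-06). For MCM2 the values in the 2 pairings were -1.01 and -0.90. The pairing with dellaq against Col-0-1 sets dellaq and Col-0-2 against lec1-4 and Col-0-1. That is the division of the libraries by plastid transcripts and length, from which the mutants' difference cannot be told apart in this pairing. The direct comparison of dellaq with lec1-4 lies across the same division and cannot be told apart from it either.

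The clamp genes differed between the wild-type sets themselves. PCNA1 was higher in Col-0-2 than in Col-0-1 by 0.63 ± 0.10 on the log2 scale (SE, adjusted p = 1.39e-04) and PCNA2 by 0.46 ± 0.09 (SE, adjusted p = 4.49e-04), calls in a direction shared by 25.8% of the genes tested. MCM3 was lower in Col-0-2 by 0.37 on that scale (-0.37 ± 0.10, SE, adjusted p = 0.0042), beside 40.1% of the genes tested, and this call was lost with the length and GC trends removed (-0.14). The other helicase genes had changes of -0.13 to -0.02 with intervals that include 0. With equal FPKM sums all 6 helicase genes were called lower in Col-0-2 (50.9% of the genes tested), and with the length and GC trends removed 5 of the 8 genes were called higher (31.1%). The clamp genes kept their direction under every setting run.

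Within each library the helicase genes kept close proportions to each other. MCM7 made up 21.9 ± 0.884% of the summed MCM2 to MCM7 FPKM in dellaq and 20.4 ± 0.497% in lec1-4, compared with 20.6 ± 0.657% in Col-0-2 and 20.6 ± 0.669% in Col-0-1 (SD, n = 3 each). MCM6 made up 12.3 ± 0.310% in dellaq and 11.6 ± 0.578% in lec1-4, compared with 11.7 ± 0.238% in Col-0-2 and 11.8 ± 0.181% in Col-0-1. The highest subunit mean was 1.75 to 1.79 times the lowest in all 4 groups. MCM3 and MCM4 varied most: MCM3 took 14.4 ± 0.439% in dellaq and 17.0 ± 0.281% in lec1-4, compared with 14.2 ± 0.283% in Col-0-2 and 17.0 ± 1.40% in Col-0-1. Its share was thus alike in dellaq and Col-0-2 and alike in lec1-4 and Col-0-1, the same division of the libraries as that by plastid transcripts and length. In the order of subunit levels, neighbours often did not differ beyond their spread: in dellaq MCM7 stood clear of MCM5, while MCM5, MCM4, MCM2, MCM3 and MCM6 each overlapped the next.

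The proportion of helicase to clamp was not kept. Summed MCM over summed PCNA FPKM was 1.87 ± 0.121 in dellaq and 2.16 ± 0.0441 in lec1-4, compared with 1.49 ± 0.0226 in Col-0-2 and 2.40 ± 0.125 in Col-0-1 (SD, n = 3 each). The dellaq ratio lay between those of the wild-type sets, above all Col-0-2 libraries and below all Col-0-1 libraries. The ratio was lower in dellaq and Col-0-2 than in lec1-4 and Col-0-1, the same division of the libraries as that by plastid transcripts and length. It sets genes of 2649 to 3184 exon bases over genes of 1130 and 1183. The part of gene length in this ratio was not tested. PCNA1 over PCNA2 was 0.802 to 0.881 in the dellaq libraries and 0.913 to 1.09 in the lec1-4 libraries, against 1.04 to 1.11 in Col-0-2 and 0.916 to 0.994 in Col-0-1. The dellaq libraries were the lowest in this ratio and did not overlap any other group. These ratios are descriptions, with no test.

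**Figure D3:**
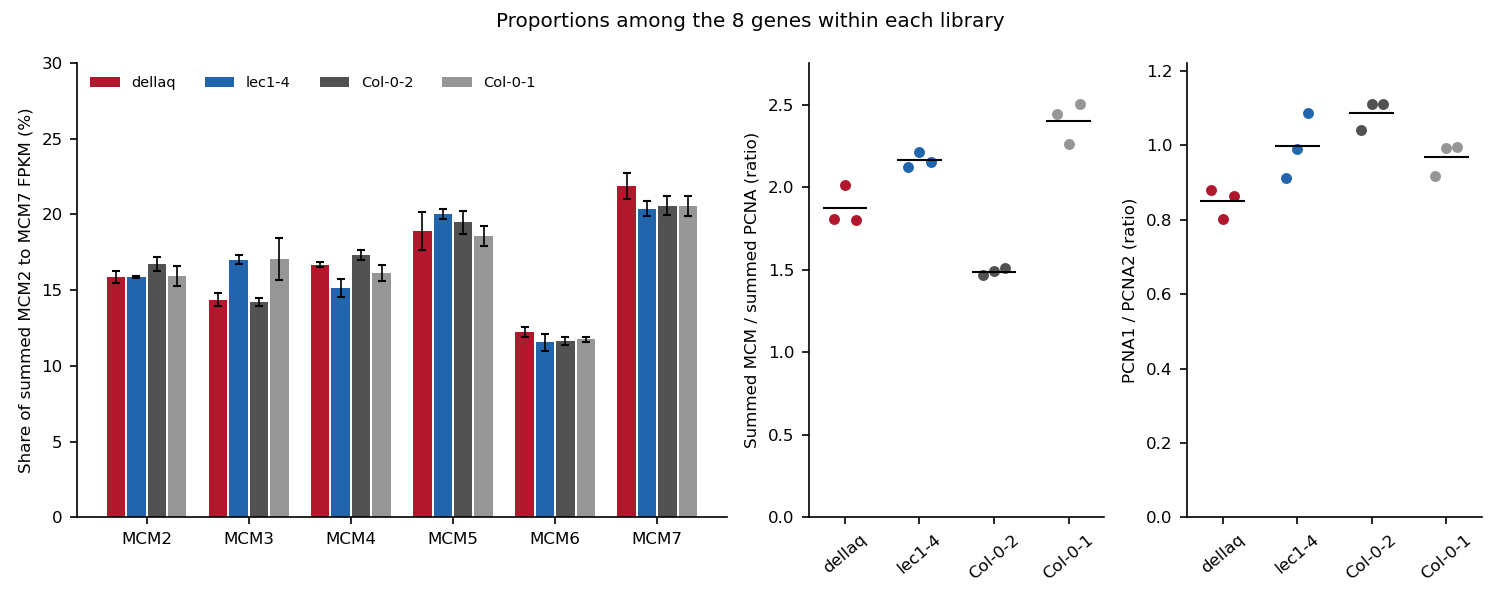
Left, share of each subunit in the summed MCM2 to MCM7 FPKM (%; bars, means; error bars, SD; n = 3). Centre and right, summed MCM over summed PCNA and PCNA1 over PCNA2 in each library (ratios; lines, means). Subunit shares differ little between groups, whereas the MCM to PCNA ratio ranges between 1.49 in Col-0-2 and 2.40 in Col-0-1.

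Genes that act before and after licensing were followed in 9 lists of other replication genes, 53 in all, every one of which passed the filter. In dellaq 46 were lower and 2 higher against Col-0-1, 40 lower and 2 higher against Col-0-2, and 36 were lower and none higher against both sets. Over all genes tested, 50.9%, 41.6% and 28.4% were lower in these comparisons, and 19.4%, 21.9% and 9.78% were higher. Their median log2 change was -0.58 for Col-0-1 as comparator and -0.48 for Col-0-2. The count of 36 became 27 with median-ratio scaling, 30 with upper-quartile scaling, 38 with equal FPKM sums and 24 with the length and GC trends removed, where the share of all genes called was 16.3%, 20.5%, 34.4% and 16.5%.

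Most genes that load the helicase also fell in dellaq. Of 7 origin recognition genes, 4 were lower in dellaq against both sets, beside 28.4% of the genes tested. ORC6 averaged 4.35 ± 0.361 FPKM in dellaq, against 12.2 ± 0.704 FPKM in Col-0-2 and 8.53 ± 1.63 FPKM in Col-0-1 (SD, n = 3 each; log2 changes of -1.30 and -0.82). ORC2 averaged 2.03 ± 0.221 FPKM in dellaq, against 4.06 ± 0.355 FPKM in Col-0-2 and 4.64 ± 0.145 FPKM in Col-0-1. All 4 helicase loading genes, CDC6 and CDT1 copies, were lower against both sets. CDT1B, which brings the helicase to the origin, averaged 5.86 ± 1.07 FPKM in dellaq and 14.2 ± 0.838 FPKM in lec1-4, against 9.27 ± 0.856 FPKM in Col-0-2 and 9.64 ± 0.714 FPKM in Col-0-1. CDT1B was thus the gene of this list that rose in lec1-4 against both sets (0.57 and 0.52, adjusted p = 6.13e-04 and 0.00436) while it fell in dellaq (-0.59 and -0.64, adjusted p = 4.95e-04 and 2.26e-04, against Col-0-2 and Col-0-1).

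Of 9 genes for helicase activation and other MCM proteins, 5 were lower in dellaq against both sets, beside 28.4% of the genes tested. MCM10, which helps the loaded helicase start, averaged 2.59 ± 0.329 FPKM in dellaq, against 6.78 ± 1.03 FPKM in Col-0-2 and 6.95 ± 1.03 FPKM in Col-0-1 (log2 changes of -1.11 and -1.14). ETG1, an MCM-binding protein first known as an E2F target, averaged 11.5 ± 1.19 FPKM in dellaq, against 16.4 ± 1.499 FPKM in Col-0-2 and 17.0 ± 0.568 FPKM in Col-0-1. Of 10 replicative polymerase genes 7 were lower against both sets. The primase subunit gene EMB2813 (AT1G67320) averaged 8.35 ± 0.406 FPKM in dellaq, against 15.2 ± 0.613 FPKM in Col-0-2 and 18.03 ± 1.60 FPKM in Col-0-1. POLA1, the catalytic subunit of polymerase alpha, fell to 5.69 ± 0.0899 FPKM in dellaq, against 8.30 ± 0.246 FPKM in Col-0-2 and 11.02 ± 0.735 FPKM in Col-0-1.

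The clamp loader, replication factor C and its relatives, places PCNA on DNA. Of its 6 genes, 2 were lower in dellaq against both sets, CTF18 and RFC2, close to the 28.4% of all genes tested. The list median of -0.19 for Col-0-1 and of -0.14 for Col-0-2 was close to the median gene. CTF18 averaged 3.13 ± 0.250 FPKM in dellaq, against 4.94 ± 0.625 FPKM in Col-0-2 and 6.75 ± 0.642 FPKM in Col-0-1. RFC2 averaged 9.99 ± 0.312 FPKM in dellaq, against 14.6 ± 0.892 FPKM in Col-0-2 and 12.3 ± 0.649 FPKM in Col-0-1. Lagging strand maturation lay near the median gene too: AT5G26680, a gene of the flap nuclease family, changed by -0.21 and -0.22 against Col-0-2 and Col-0-1, and the ligase gene LIG1 by -0.07 (adjusted p = 0.338) and -0.27 (adjusted p = 0.00164).

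Of 9 genes of the single-strand binding protein RPA, 8 were lower in dellaq against both sets, beside 28.4% of the genes tested. RPA1B (RPA70B) averaged 6.80 ± 1.85 FPKM in dellaq, against 14.4 ± 1.29 FPKM in Col-0-2 and 13.5 ± 0.879 FPKM in Col-0-1. RPA1D (RPA70D) averaged 10.5 ± 1.72 FPKM in dellaq, against 20.4 ± 0.952 FPKM in Col-0-2 and 20.4 ± 3.15 FPKM in Col-0-1. The genes RPA3B and POLD4, with 800 and 726 exon bases, were the 2 of the 53 called higher in dellaq against Col-0-1. Of 3 ribonucleotide reductase genes, which supply deoxynucleotides, TSO2 and RNR1 fell and RNR2A was not called in dellaq. TSO2 averaged 38.2 ± 3.88 FPKM in dellaq and 86.3 ± 3.44 FPKM in lec1-4, against 63.1 ± 2.25 FPKM in Col-0-2 and 62.4 ± 3.14 FPKM in Col-0-1, so that it rose in lec1-4 against both sets (0.45 and 0.46, adjusted p = 7.78e-05 and 2.88e-04). FAS1, FAS2 and MSI1 of chromatin assembly factor 1, which deposits histones behind the fork, were all lower in dellaq against both sets.

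**Figure D4:**
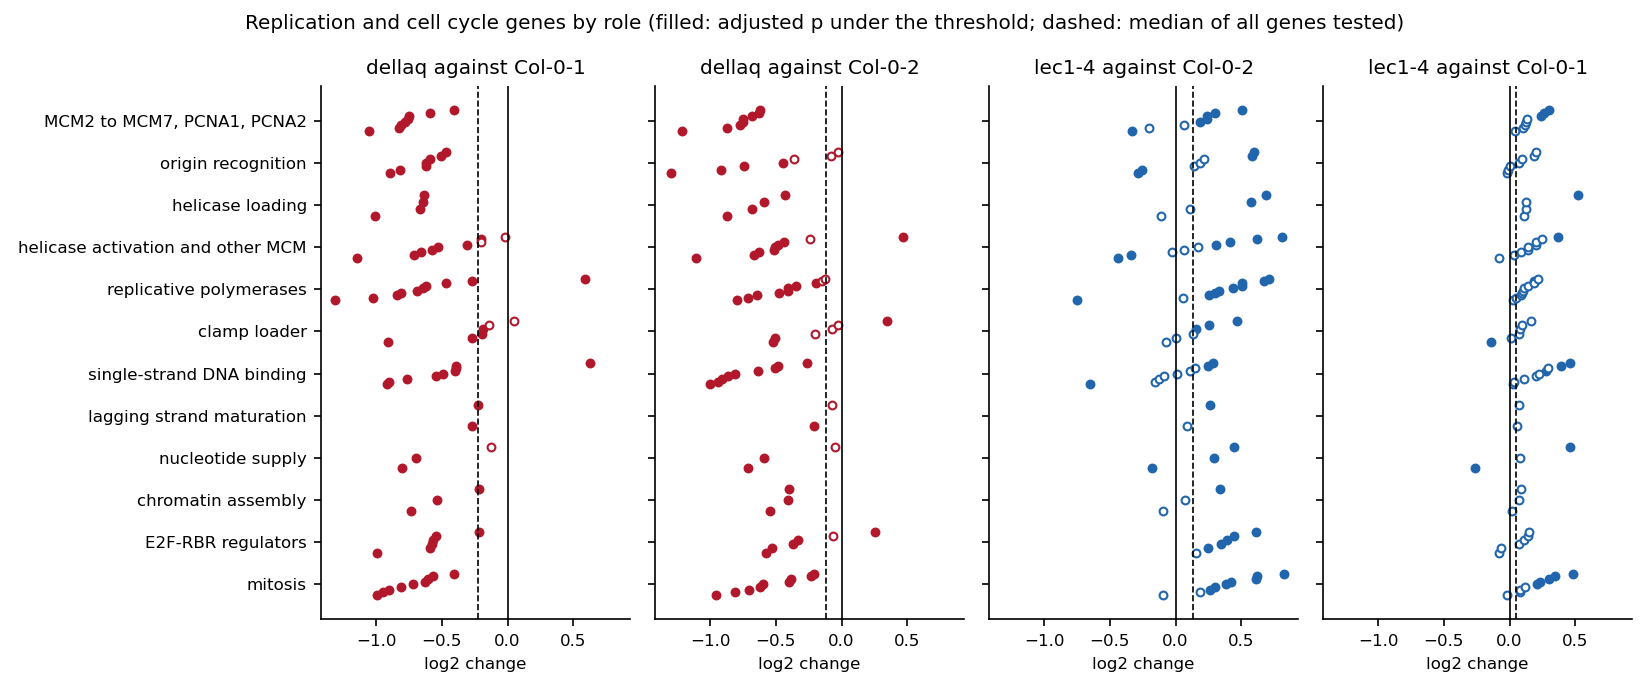
Log2 changes (x axis, log2(FPKM + 1) scale) of the 8 genes, of 9 lists of other replication genes and of the E2F-RBR and mitosis lists, in dellaq and lec1-4 against each wild-type set; each point is a gene, filled where the adjusted p was under 0.05, and dashed lines are the medians of all genes tested. In dellaq most points of the lists lie left of the dashed line, with the clamp loader and lagging strand lists near it.

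In lec1-4, by contrast, few of the 53 genes changed against both sets: 1 was lower (RNR2A) and 2 were higher (CDT1B and TSO2), beside 4.01% and 8.19% of the genes tested. Against Col-0-2 alone 25 were higher and 7 lower, beside 42.7% and 23.3% of the genes tested. Where Col-0-1 alone was used, 7 were higher and 2 lower, beside 15.8% and 10.7%. Their median change was 0.17 for Col-0-2 as comparator and 0.10 for Col-0-1, while the median gene changed by 0.13 and 0.05. ORC4, an origin recognition subunit, changed by 0.60 against Col-0-2 and by 0.10 (adjusted p = 0.194) where Col-0-1 was used, and POLD1, the catalytic subunit of polymerase delta, by 0.67 and 0.22 (adjusted p = 0.0519).

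The E2F and RBR genes, which govern transcription of the replication genes, and the mitosis genes were also set beside the 8 genes. Of 6 E2F-RBR genes, 4 were lower in dellaq against both sets, beside 28.4% of the genes tested. E2FC, an E2F factor known for repression, averaged 11.1 ± 0.344 FPKM in dellaq, against 14.7 ± 0.243 FPKM in Col-0-2 and 16.7 ± 0.554 FPKM in Col-0-1. DPA, a dimerization partner of E2F, averaged 10.2 ± 1.42 FPKM in dellaq, against 15.6 ± 2.11 FPKM in Col-0-2 and 15.7 ± 1.08 FPKM in Col-0-1. E2FB, chosen after its values were seen, had opposite calls in the 2 comparisons, 0.26 against Col-0-2 (adjusted p = 0.0123) and -0.22 against Col-0-1 (adjusted p = 0.0268). In lec1-4 none of the 6 was called against both sets, where 4.01% of the genes tested were lower and 8.19% higher. Against Col-0-2 alone 5 of the 6 were higher (42.7% of the genes tested), or 3 with the length and GC trends removed (30.5%). RBR1 and E2FA changed by 0.35 and 0.61 against Col-0-2 (adjusted p = 8.18e-04 and 1.97e-04).

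All 9 mitosis genes were lower in dellaq against both sets, beside 28.4% of the genes tested. The count was 6 with median-ratio scaling or with the length and GC trends removed, beside 16.3% and 16.5%. The kinase gene CDKB1;2 averaged 8.72 ± 0.396 FPKM in dellaq and 22.1 ± 0.815 FPKM in lec1-4, against 17.8 ± 1.75 FPKM in Col-0-2 and 17.1 ± 0.703 FPKM in Col-0-1. KNOLLE, the syntaxin of the dividing cell plate, averaged 153 ± 1.98 FPKM in dellaq and 252 ± 7.71 FPKM in lec1-4, against 269 ± 5.15 FPKM in Col-0-2 and 233 ± 17.3 FPKM in Col-0-1. In lec1-4, 4 of the 9 mitosis genes were higher against both sets, or 1 with median-ratio scaling, beside 8.19% and 5.10% of the genes tested. Among the 4 was CDKB1;2 (0.30 and 0.35, adjusted p = 0.00222 and 0.00283).

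The 8 genes also moved together among replicates. In dellaq, replicate 1 had the highest value for all 8, and in Col-0-1 replicate 2 had the highest and replicate 3 the lowest for all 8. Over all genes tested these libraries were the highest of their group for 44.3% and 35.8% and the lowest for 36.7%. In lec1-4 and Col-0-2 no library was the highest or lowest for all 8. The coefficient of variation between replicates was 3.53 to 14.6% in dellaq and 1.66 to 6.88% in lec1-4, compared with 0.617 to 5.45% in Col-0-2 and 4.65 to 14.6% in Col-0-1. Over the 12 libraries, which fall in 4 groups, the Pearson correlation of each helicase gene with the mean profile of the other 7 genes was 0.92 to 0.99, and that of PCNA1 and PCNA2 was 0.84.

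Among 15186 genes with a mean of at least 5 FPKM, the 5 whose profile over the 12 libraries was most like the mean profile of the 8 genes were AT4G33625, AT2G03240, AT5G23400, UGT78D1 and GH9C1, with Pearson correlations of 0.99 to 1.00. None is in the replication lists. GH9C1, a glycosyl hydrolase gene, averaged 39.4 ± 3.38 FPKM in dellaq and 115 ± 5.58 FPKM in lec1-4, against 100.4 ± 3.45 FPKM in Col-0-2 and 92.3 ± 6.71 FPKM in Col-0-1. UGT78D1, a flavonol glycosyltransferase gene, averaged 102 ± 7.70 FPKM in dellaq and 157 ± 8.64 FPKM in lec1-4, against 148 ± 1.67 FPKM in Col-0-2 and 145 ± 11.7 FPKM in Col-0-1. With 4 groups behind the 12 points, much of such likeness can be that of the group means.

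**Figure D5:**
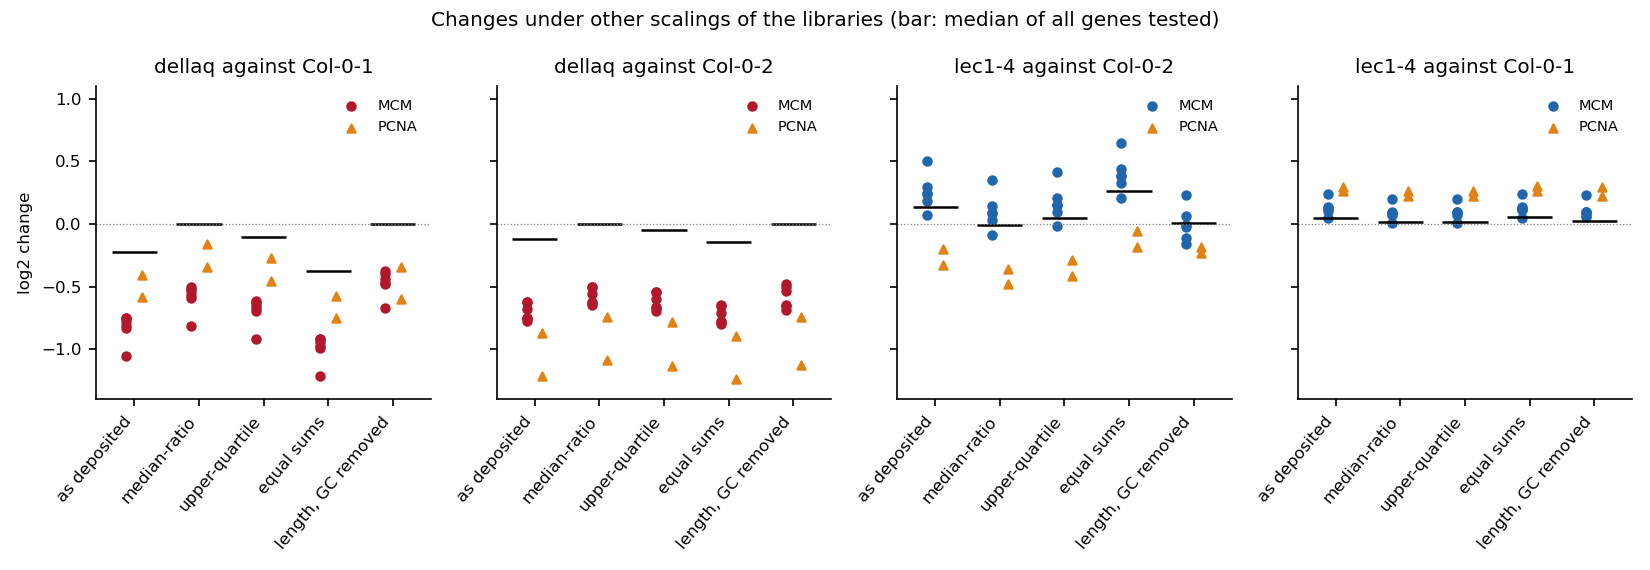
Log2 changes (y axis, log2(FPKM + 1) scale) of the 6 MCM genes (circles) and 2 PCNA genes (triangles) under 5 treatments of the libraries (x axis); black bars are medians of all genes tested. The dellaq changes stay below 0 and below the median gene under each treatment, at -0.16 for PCNA2 against Col-0-1 with median-ratio scaling as the closest, while the lec1-4 helicase changes against Col-0-2 move to both sides of 0.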

How the data were processed

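RNA of developing seeds was selected with poly-T beads, and 3 µg per sample was used as library input, per the labels' protocols, with a kit that does not mark strand. The authors deposited FPKM, 1 value per gene in each library. DESeq 1.18.0, HTSeq 0.6.1, TopHat2 2.0.12 and Bowtie2 2.2.3 appear, with no roles, in the submitters' processing notes. Their genome build, and how reads matching more than 1 gene were counted, is not given in the sources used here. Names, exon lengths and promoters came from RefSeq TAIR10.1, with 32835 of 33602 IDs matched.

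Changes come from limma 3.58.1 in R 4.3.3 (trend method, two-sided) on log2(FPKM + 1), which understates changes of low genes, with 12 libraries, a mean for each group and 8 residual degrees of freedom; p-values were adjusted by Benjamini-Hochberg and called at 0.05. The fit was tested on simulated data. The 8 genes, the lists and the settings were chosen with earlier results of these data known. In each list the 2 genes with the smallest larger p against both wild-type sets were named, for each mutant, as were the 5 genes of at least 5 FPKM most like the 8 in profile, and LEC1. Other settings were a pseudocount of 0.1 or 10, no filter or one of 5 FPKM, median-ratio, upper-quartile and equal-sum scaling, removal of length and GC trends, the compared libraries alone, a replicate block, a minimum change of 0.5, and each library left out. Depth was estimated and limits precision as stated; intervals of counting cover counting error only.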

Additional observations from a re-analysis of the deposited data

Results flagged for a closer look

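The change in dellaq (against Col-0-1) differed from the change in lec1-4 (against Col-0-2) for each helicase gene, by the limma contrast of the 2 changes. This contrast sets dellaq and Col-0-2 against lec1-4 and Col-0-1, the division of the libraries also seen in plastid transcripts and length. A difference between the mutants cannot be told apart from that division here. The differences of the log2 changes were -1.01 for MCM2, -1.56 for MCM3, -0.85 for MCM4, -1.11 for MCM5, -0.99 for MCM6 and -0.99 for MCM7, with adjusted p-values of 5.53e-07, 4.79e-07, 4.25e-06, 3.68e-07, 1.32e-06 and 8.69e-07. For each of these genes the dellaq libraries lay below all 9 others, beside 28.5% of the genes tested, which describes the dellaq side only. With the length and GC trends removed the differences were smaller, at -0.33 for MCM2, -0.91 for MCM3, -0.31 for MCM4, -0.54 for MCM5, -0.35 for MCM6 and -0.39 for MCM7, and all 6 still passed. The same difference with the wild-type sets exchanged was smaller for MCM3, at -0.81, and was -0.98 to -0.73 for the other 5. The contrast was called negative for 52.8% of the genes tested.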

How the results depend on the processing

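In dellaq the counts of genes called lower were 8 against Col-0-1 and 7 with median-ratio scaling or a minimum log2 change of 0.5, and 8 against Col-0-2 and against lec1-4 under each setting run. The replicate numbers showed no clear pairing of the libraries. Correlations of deviations were -0.10 to 0.19 in 18 same-number pairs (2 over 0.1) and -0.16 to 0.16 in 36 other pairs (6 over 0.1). With a replicate block the count lower in lec1-4 against Col-0-2 was 2 in place of 1. PCNA1 in lec1-4 against Col-0-1 then lost its call (adjusted p = 0.071), and the dellaq counts stayed at 8. Counts in lec1-4 against Col-0-2 moved: 2 lower with median-ratio or upper-quartile scaling, a pseudocount of 10 or the compared libraries alone, and 0 lower with equal FPKM sums or a minimum change of 0.5; 1 higher with median-ratio scaling, trends removed or a minimum change of 0.5, and 3 higher with upper-quartile scaling. Without single libraries they ranged over 1 to 2 lower (2 without dellaq replicate 1 or 2 or Col-0-1 replicate 2 or 3) and 4 to 5 higher. In lec1-4 against Col-0-1, 1 was higher with median-ratio or upper-quartile scaling or no filter and 0 with a minimum change of 0.5. Without single libraries that count ranged over 0 to 3, at 0 without lec1-4 replicate 2 or Col-0-1 replicate 3, and at 1 without dellaq replicate 3, lec1-4 replicate 1, Col-0-1 replicate 1 or any Col-0-2 library. In Col-0-2 against Col-0-1, 6 were lower with equal FPKM sums and 0 with trends removed or a minimum change of 0.5, and 5 were higher with trends removed and 1 with a minimum change of 0.5. The cause of these shifts was not tested.

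Some single values changed sign. With trends removed, lec1-4 against Col-0-2 gave -0.11 for MCM2, -0.16 for MCM4 (called lower, adjusted p = 0.0417), -0.028 for MCM6 and -0.011 for MCM7, and Col-0-2 against Col-0-1 gave 0.21 for MCM2, 0.22 for MCM4, 0.16 for MCM5, 0.10 for MCM6 and 0.10 for MCM7, of which MCM2, MCM4 and MCM5 were called higher (adjusted p = 0.0071, 0.00946 and 0.0343). With median-ratio scaling, MCM4 in lec1-4 against Col-0-2 was -0.086, and in Col-0-2 against Col-0-1 MCM2 was 0.059, MCM4 0.093 and MCM5 0.057; with upper-quartile scaling MCM4 was -0.020 and 0.028 in these comparisons. Without single libraries, MCM4 ranged from -0.0084 (without lec1-4 replicate 2) to 0.085 in lec1-4 against Col-0-1, and from -0.054 to 0.0095 in Col-0-2 against Col-0-1, above 0 without Col-0-2 replicate 1 or Col-0-1 replicate 2. The difference between the change in dellaq (against Col-0-1) and the change in lec1-4 (against Col-0-2) also moved. Its median over the 8 genes was -0.99, and -0.60 with median-ratio scaling and -0.36 with trends removed. For the clamp genes this difference of changes became 0.14 for PCNA1 and 0.20 for PCNA2 with median-ratio scaling, and 0.021 for PCNA2 with upper-quartile scaling. In the direct comparison of dellaq with lec1-4 both clamp genes stayed lower in dellaq under each setting run. Of the remaining settings for single genes, 1193 left direction and call as they were, 52 lost a call and 22 gained one.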

Other observations

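The E2F-site spellings searched before the gene starts were set beside the calls in dellaq, as counts with no test. Of the 15 other replication genes with a match, 14 fell in dellaq relative to both wild-type sets, compared with 22 of the 38 without one. Outside all lists, 81 of 258 genes with a match (31.4%) were lower in dellaq against both sets, against 5514 of 19164 genes without one (28.8%).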
